A study of Mus musculus with 2 samples.

Results

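The ligands and receptors of the VEGF and angiopoietin families were followed across the cell types of injured mouse muscle. The 10 genes are the ligands Vegfa, Vegfb, Vegfc and Pgf with their receptors Flt1 (VEGFR1), Kdr (VEGFR2) and Nrp1, and the angiopoietins Angpt1 and Angpt2 with their receptor Tek (Tie2). The members were chosen by gene symbol, and all 10 of 10 symbols were found once among the 32285 genes of both matrices. Mononuclear cells were taken from the quadriceps of wild-type (WT) C57BL/6J mice 9 h or 2 h after an injection of 100 µl of 1.2% (w/v) BaCl2, a salt that kills muscle fibres, and were stored frozen before droplet sequencing of RNA 3′ ends. The 9 h group was 1 library and the 2 h group was 1 library, with no uninjured library among those analysed here. How many mice went into each library was not given in the sources used here. No difference between the times could therefore be set against replicate libraries or tested, and all intervals are 95% intervals that cover counting error only. Time after injury, library and any difference between the mice cannot be told apart.

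VEGF ligands are secreted dimers that act on receptor tyrosine kinases of endothelial cells, the cells that line vessels. VEGF-A drives endothelial survival, permeability and sprouting through Kdr, while Flt1 binds VEGF-A tightly and acts in part as a decoy, and placental growth factor, the product of Pgf, binds Flt1 and not Kdr. Neuropilin-1 is a co-receptor for VEGF-A and for class 3 semaphorins. Angiopoietin-1, made by cells around vessels, activates Tie2 and keeps vessels quiet, and angiopoietin-2, made by endothelial cells, mostly opposes it and loosens vessels.

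After filtering, 8147 cells remained at 9 h and 4900 at 2 h, with median depths of 2327 and 4519 unique molecules (UMIs). These cells carried 35127600 UMIs at 9 h and 27598413 at 2 h. Clustering without the 10 genes gave 20 clusters, which marker genes placed in 12 classes. The cells were not sorted, so each class is named "X-like" from its markers alone. The 3 classes with most of the UMIs described here were FAP-like cells (fibro-adipogenic progenitors, the mesenchymal cells between fibres, 2381 cells at 9 h and 2025 at 2 h), endothelial-like cells (540 and 263) and neutrophil-like cells (4293 and 1631). There were also 234 macrophage-like and 360 monocyte-like cells at 9 h, against 314 and 173 at 2 h. The endothelial marker Cdh5 stood at 1839 CPM in endothelial-like cells at 9 h and 1806 CPM at 2 h, where CPM is a gene's UMIs per 1000000 UMIs summed over all cells of the class. Cdh5 was at 5.36 and 8.05 CPM in FAP-like cells. FAP and neutrophil markers were not at 0 in endothelial-like cells: the 15 FAP markers summed to 2969 CPM at 9 h and 1378 CPM at 2 h, and the 11 neutrophil markers to 14277 and 6420 CPM, and their part in the results was not tested. Sub-clusters led by markers of another class were therefore set apart below as mixed, and the values of the called members are repeated without them, but not those of the list genes. The files share 20 barcodes, of which 12 were kept in both. Different clusters held most FAP-like cells at each time: the 9 h cells lay mainly in clusters 1 (led by Cxcl5 and Ccl2, 1608 cells) and 10 (Saa1, 496 cells), and the 2 h cells in clusters 2 (Col15a1, 1426 cells) and 7 (Sema3c and Pi16, 588 cells). Neutrophil-like cells at 2 h lay mainly in cluster 0 (1542 cells), which had 529 cells at 9 h, while clusters 3, 4 and 5 held the most 9 h cells.

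A gene counted as measured in a class of at least 100 cells per library if it had at least 100 UMIs over both libraries. It was called higher or lower where its level changed at least 2-fold after 10 CPM had been added to both levels. These calls describe the pair of libraries and are not tests. In endothelial-like cells 7 of the 10 genes were measured, and Pgf and Angpt2 were called higher at 9 h (2 genes, against 7.94% of all measured genes of the class) while Vegfc, Kdr, Nrp1 and Tek were called lower (4 genes, against 8.23%). In FAP-like cells 8 were measured: Pgf was called higher (1 gene, against 7.35% of all measured genes), Angpt1 and Tek were called lower (2 genes, against 9.29%) and the other 5 were called neither. In macrophage-like cells only Vegfa and Nrp1 were measured: Vegfa was called higher (1 gene, against 4.38%) and Nrp1 neither (lower calls were 7.69%). Vegfa was the only gene measured in monocyte-like cells and was called higher (1 gene, against 4.42%, with lower calls at 6.24%). In neutrophil-like cells Vegfa and Flt1 were measured and called neither (higher calls were 4.77% and lower calls 5.91% of measured genes). In dendritic-like cells only Vegfa was measured and it was called neither (higher calls were 5.77% and lower calls 5.4%). The called ligands thus went in both directions, and in endothelial-like cells every measured receptor gene but Flt1 was called lower.

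**Figure D1:**
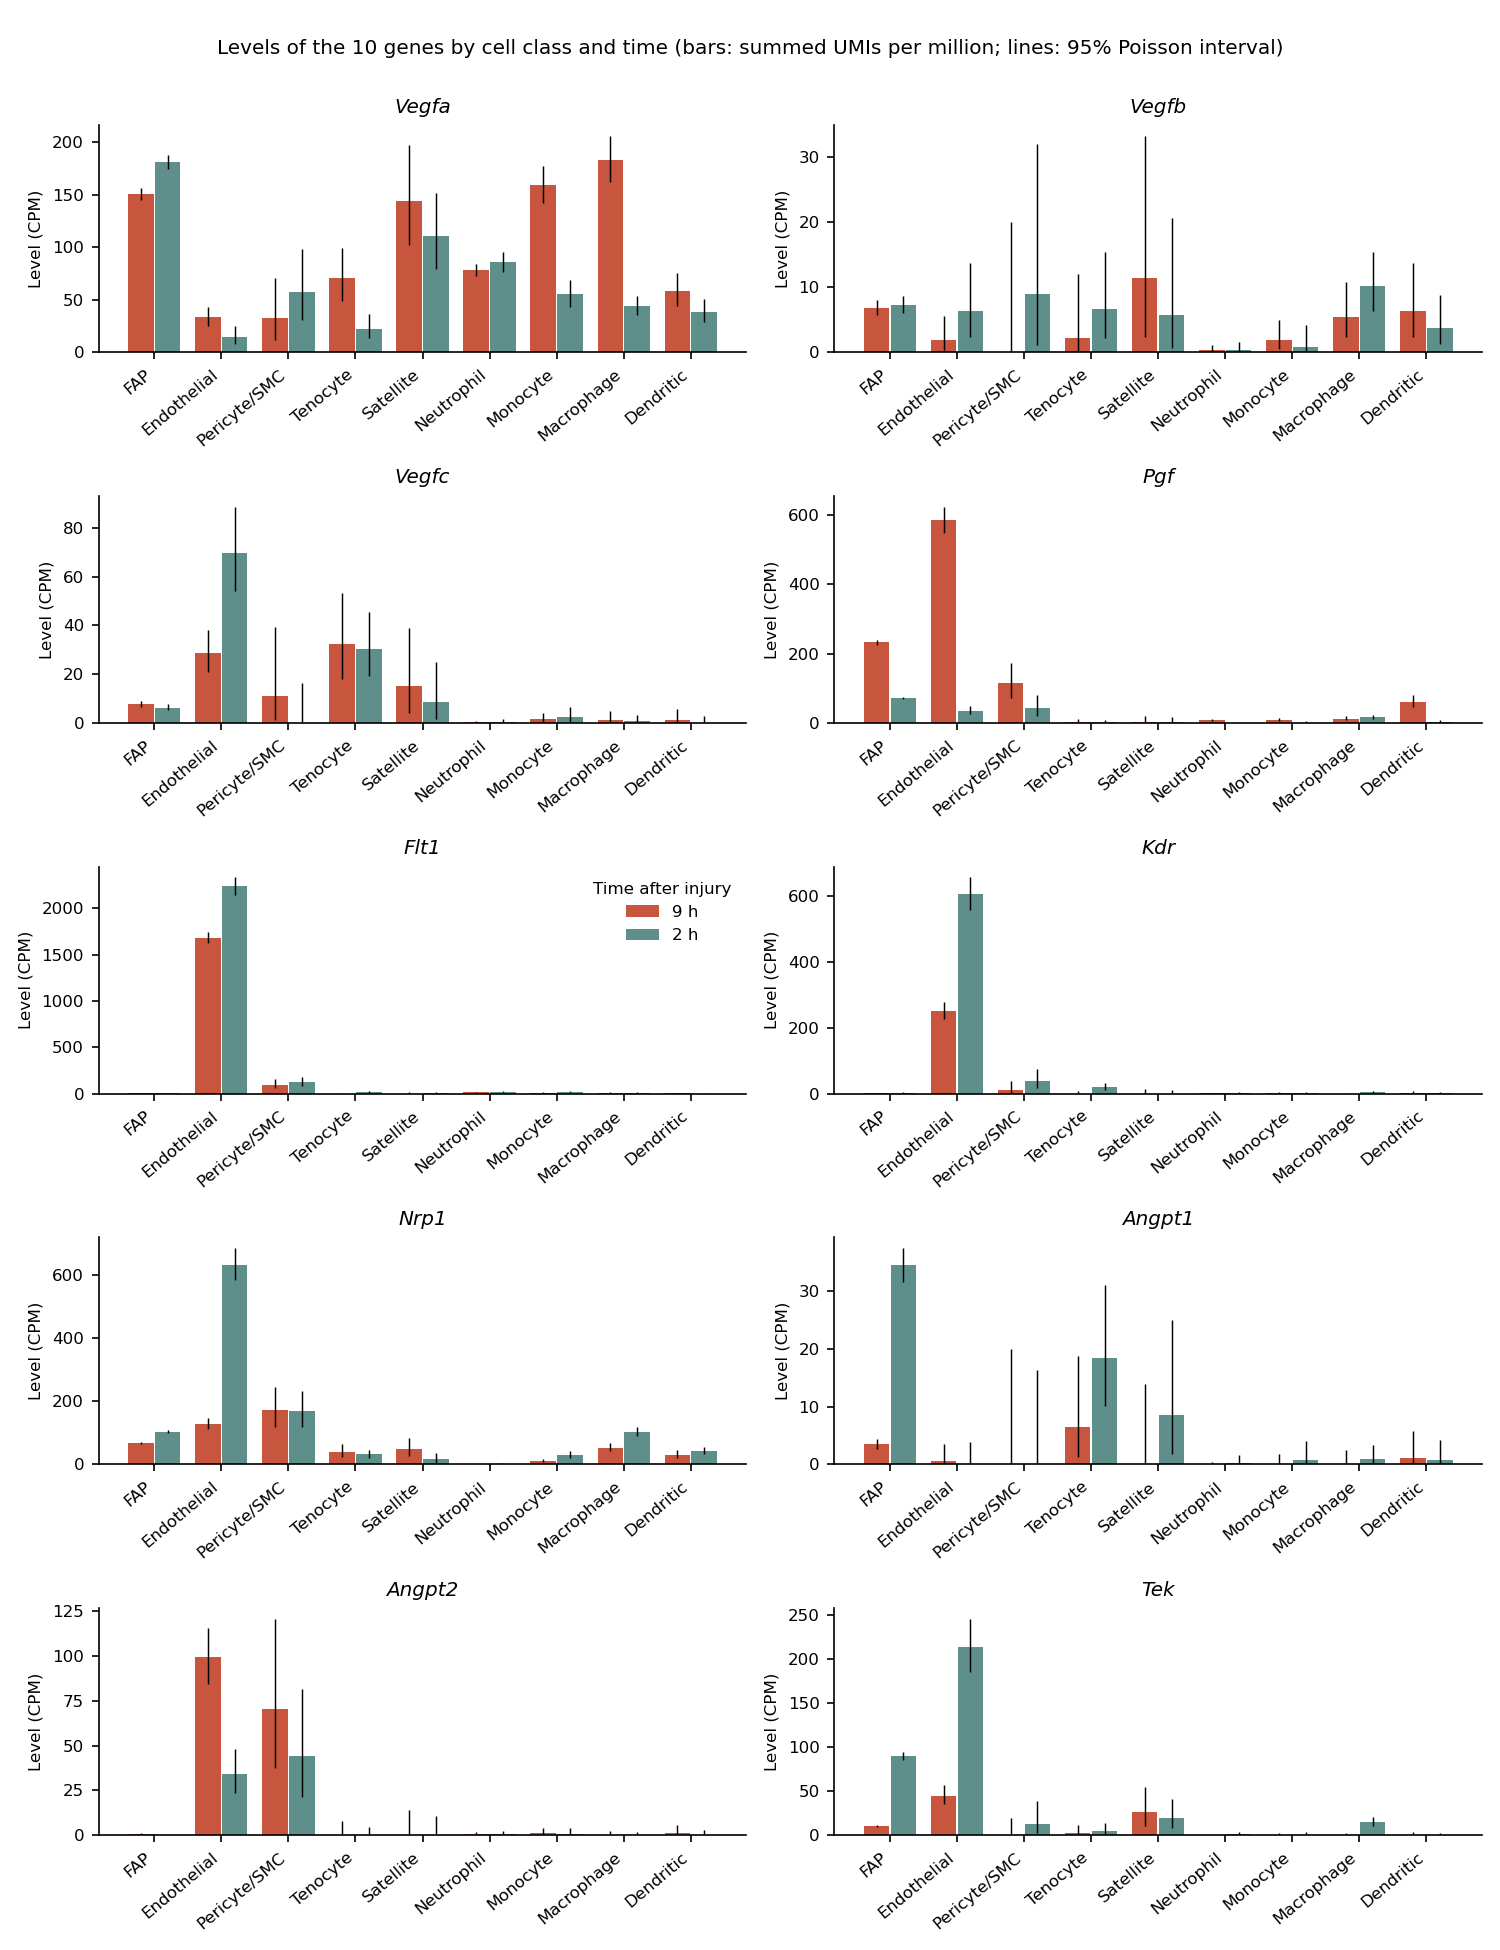
Level of each gene (CPM, linear axes from 0, a scale of its own in each panel) in 9 cell classes at 9 h (red) and 2 h (green). Bars are summed UMIs of 1 library as CPM and lines are 95% Poisson intervals. Flt1, Kdr and Angpt2 stand high in endothelial-like cells, Angpt2 also in pericyte or smooth muscle-like cells, and Angpt1 in FAP-like cells. The Pgf bar of endothelial-like cells is 585 CPM at 9 h and 35.5 CPM at 2 h.

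Vegfa, which encodes the main endothelial growth factor, lies on the minus strand of chromosome 17 (mm10, 46016993 to 46032369). Of its UMIs, FAP-like cells had 67.3% at 9 h and 82.5% at 2 h. Its level there was 151 CPM at 9 h (2956 UMIs, interval 145 to 156) and 181 CPM at 2 h (2955 UMIs, 175 to 188), a ratio of 0.831 (0.789–0.875) that was called neither. In macrophage-like cells it was 183 CPM at 9 h (270 UMIs) and 44.1 CPM at 2 h (96 UMIs), 4.15-fold higher (3.28–5.30), and without the mixed sub-clusters 193 and 27.2 CPM. Monocyte-like cells had 159 CPM at 9 h (331 UMIs) and 55.0 CPM at 2 h (74 UMIs), 2.89-fold higher (2.24–3.77), with a ratio of 3.16 (2.43–4.16) without the mixed sub-clusters. Different sub-clusters held many of these cells at each time. The myeloid classes thus reached the level of FAP-like cells at 9 h and lay well under it at 2 h.

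At 9 h the order of Vegfa levels was macrophage-like (183), monocyte-like (159), FAP-like (151), satellite-like (144), neutrophil-like (78.1), tenocyte-like (71.0) and dendritic-like cells (58.4 CPM). Neighbours in that order overlapped in their intervals, except that satellite-like cells (102–197) lay above neutrophil-like cells (72.2–84.4). At 2 h FAP-like cells (181) came first, then satellite-like (111), neutrophil-like (85.5), monocyte-like (55.0), macrophage-like (44.1) and dendritic-like cells (38.4 CPM), and the FAP-like interval overlapped none of the others. All other classes stood at 33.1 CPM or less at 9 h and at 57.6 CPM or less at 2 h, B-like cells having 0 UMIs at both times. Pericyte or smooth muscle-like cells had the 57.6 CPM at 2 h from 13 UMIs. Satellite-like cells are muscle stem cells, and only 69 at 9 h and 81 at 2 h were present. Neutrophil-like cells had 14.7% of the Vegfa UMIs at 9 h and 8.38% at 2 h.

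The share of cells with a UMI was compared at equal depth. Thinning left out 52 and 24 FAP-like, 44 and 19 endothelial-like, 324 and 94 neutrophil-like and 7 and 7 macrophage-like cells that were too shallow at 9 h and 2 h. After every cell had been thinned to 1000 UMIs, 8.81% of 227 macrophage-like cells had a Vegfa UMI at 9 h (5.46–13.3) and 2.28% of 307 at 2 h (0.922–4.64). Without thinning the shares were 20.5% at 9 h and 10.2% at 2 h. For monocyte-like cells the thinned shares were 11.0% at 9 h (7.91–14.7) and 4.07% at 2 h (1.65–8.21). In lymphoid cells, set beside these as a background, 2 of 37 T or NK-like cells had a Vegfa UMI at 9 h (5.41%) and 7 of 101 at 2 h (6.93%), with median depths of 3110 and 3875 UMIs before thinning, against 5548.5 and 5775 in macrophage-like cells. The macrophage-like and monocyte-like shares at 2 h lay under this T or NK-like background, so these shares alone are not read as expression. B-like cells, 4 at 9 h and 45 at 2 h, had 0 Vegfa UMIs. The T or NK-like background is not a clean negative. It rests on few cells with a UMI, and the FAP markers summed to 6615 CPM in T or NK-like cells at 9 h and 7761 CPM at 2 h. Whether the shares at 2 h differ from it was not tested. The 9 h shares of both classes lay above the T or NK-like share but inside its wide interval (0.661–18.2), and the neutrophil-like shares of 6.32% at 9 h and 7.09% at 2 h were close to it. FAP-like cells had 12.1% at 9 h (10.8–13.5) and 12.99% at 2 h (11.5–14.5), or 45.3% and 49.5% before thinning.

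The window of 250 bases before the first of 2 RefSeq starts of Vegfa (GRCm38.p6, chr17:46032378-46032627, minus strand) is shown because FAP-like and myeloid cells differed in this gene. Capitals mark GGAA, the core of ETS-factor motifs, on either strand.
Vegfa: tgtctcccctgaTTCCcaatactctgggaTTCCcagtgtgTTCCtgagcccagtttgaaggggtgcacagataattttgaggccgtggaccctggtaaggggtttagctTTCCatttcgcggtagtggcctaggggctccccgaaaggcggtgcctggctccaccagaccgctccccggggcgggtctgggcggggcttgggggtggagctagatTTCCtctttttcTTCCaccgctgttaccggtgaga
The window held 6 GGAA cores and 2 copies of GGGCGG, the GC box. This window held no ACGTG, the hypoxia-response core, and no TGANTCA, the AP-1 motif, and 59.2% of its bases were G or C. The window before the second start, which lies inside the annotated gene and is not printed, held 1 ACGTG, no TGANTCA, 2 GGAA cores and 1 GGGCGG. All motifs were searched on both strands in the 250 bases before 32851 RefSeq starts. GGAA was in 93.4% of these windows, GGGCGG in 32.7%, ACGTG in 16.6% and TGANTCA in 6.75%, and a match or its lack says nothing about binding.

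Vegfb, a ligand of Flt1 linked to fatty acid uptake, was sparse. It lies on chromosome 19 (6982473 to 6987651) and had 161 UMIs at 9 h and 162 at 2 h in all kept cells. FAP-like cells had 82.6% of them at 9 h and 72.8% at 2 h, at 6.78 CPM and 7.25 CPM, a ratio of 0.936 (0.725–1.21). Macrophage-like cells had 4.97% of them at 9 h and 13.6% at 2 h, with 8 and 22 UMIs. No class but FAP-like cells had enough UMIs to be measured.

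Vegfc, the lymphatic growth factor (chromosome 8, 54077606 to 54187096), was an endothelial and FAP transcript. Endothelial-like cells had 28.7 CPM at 9 h (46 UMIs) and 69.9 CPM at 2 h (67 UMIs), 2.44-fold lower at 9 h (1.65–3.63). Without the mixed sub-clusters the levels were 31.5 and 76.2 CPM, so the fall was as large without them. FAP-like cells stood at 7.70 CPM at 9 h and 6.26 CPM at 2 h (151 and 102 UMIs, ratio 1.23, 0.95002 to 1.60), and tenocyte-like cells at 32.3 and 30.3 CPM with 15 and 23 UMIs. Within the endothelium the transcript was arterial: sub-cluster 3, called arterial-like from its markers, had 25 of the 46 UMIs at 9 h and 53 of the 67 at 2 h, at 132 and 204 CPM. There the ratio was 0.644 (0.383–1.05), an interval that includes no change.

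Pgf lies on the minus strand of chromosome 12 (85166635 to 85177790). It showed the largest rise among the measured gene and class pairs. In endothelial-like cells it reached 585 CPM at 9 h (938 UMIs, 548 to 624) against 35.5 CPM at 2 h (34 UMIs, 24.6 to 49.6), 16.5-fold higher (11.7–24.0). After thinning to 1000 UMIs, 24.6% of 496 endothelial-like cells had a Pgf UMI at 9 h (20.9–28.6) and 1.64% of 244 at 2 h (0.448–4.14), while 0.680% of neutrophil-like cells had one at 9 h and 0.0651% at 2 h. Before thinning the endothelial-like shares were 35.2% and 4.18%. The UMIs were uneven over cells: the tenth of cells with most Pgf held 65.8% of them at 9 h, and most lay in a sub-cluster described below. Without the mixed sub-clusters the levels were 782 and 36.3 CPM, 21.5-fold higher (14.97–32.2).

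FAP-like cells held most Pgf UMIs at both times, 80.2% at 9 h and 92.98% at 2 h. Their level was 232 CPM at 9 h (4547 UMIs, 225 to 239) and 71.6 CPM at 2 h (1166 UMIs, 67.6 to 75.8), 3.24-fold higher (3.04–3.46). The thinned share of FAP-like cells with a UMI was 12.8% at 9 h and 4.45% at 2 h. This rise depended on which FAP clusters were counted: without clusters that had no FAP marker among their 10 leading genes, which takes out clusters 1 and 10, the log2 ratio was -0.029. These clusters hold 1608 and 496 of the 2381 FAP-like cells at 9 h, but 8 and 0 of the 2025 at 2 h. The alternative thus compares a small part of the 9 h cells with nearly all 2 h cells and cannot settle the rise. The FAP-like level was 233 CPM at 9 h and 73.2 CPM at 2 h when mixed sub-clusters were left out. Pericyte or smooth muscle-like cells, the mural cells of vessels, had 114 CPM at 9 h and 44.3 CPM at 2 h from 21 and 10 UMIs. The FAP markers summed to 11534 and 5456 CPM in them, and the part of FAP RNA in their Pgf was not tested. Dendritic-like cells had 59 Pgf UMIs in 21 of 117 cells at 9 h and 4 UMIs in 3 of 142 cells at 2 h, too few UMIs to be counted as measured.

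**Figure D2:**
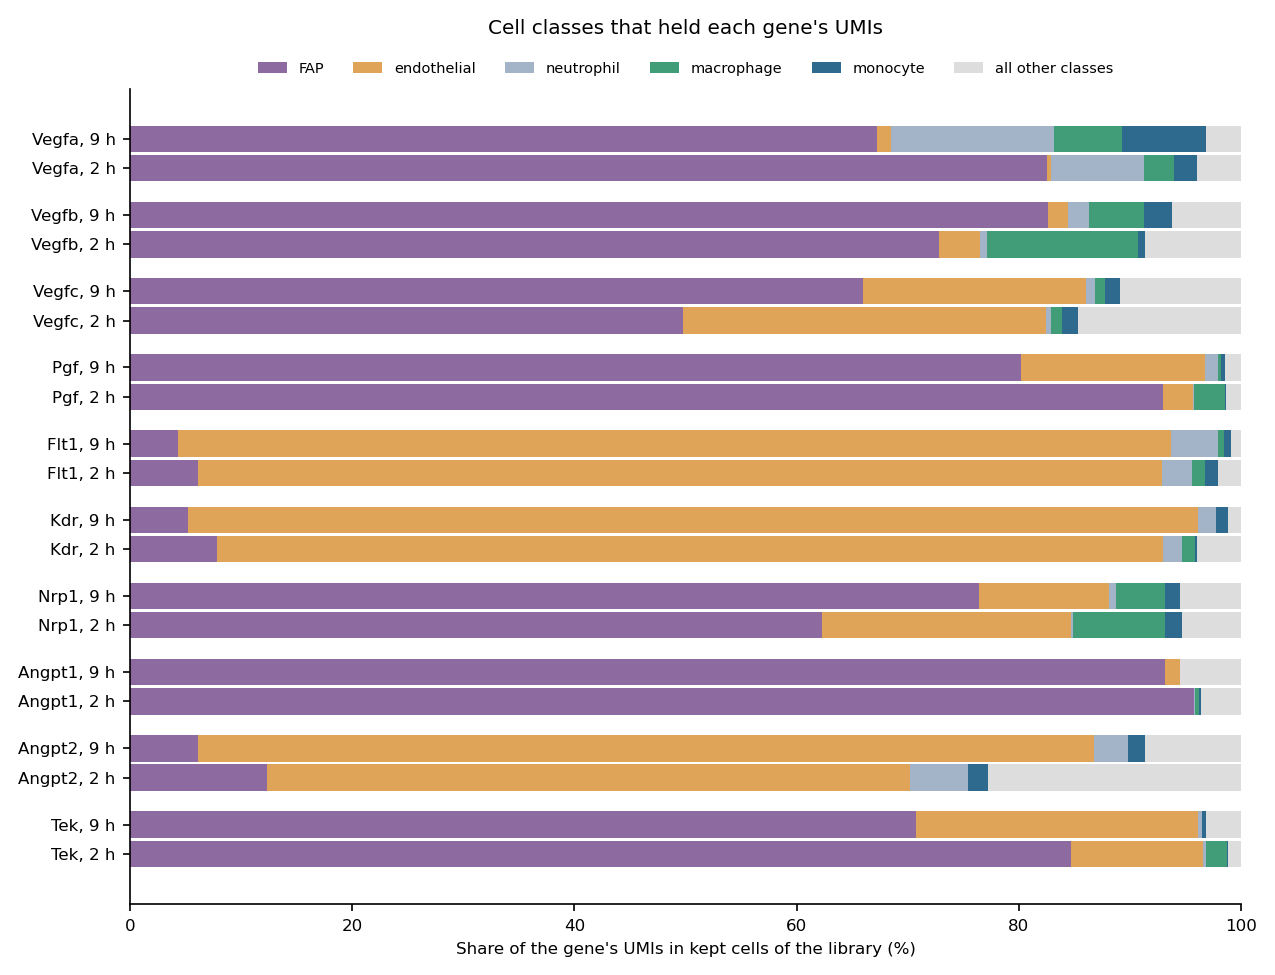
Share (%) of each gene's UMIs held by each cell class, with the 9 h bar above the 2 h bar of each gene. Each bar sums over all kept cells of 1 library, so it also moves with the number of cells in a class. FAP-like cells hold most UMIs of Vegfa, Vegfb, Pgf, Nrp1, Angpt1 and Tek, and endothelial-like cells most of Flt1, Kdr and Angpt2.

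Flt1, the VEGF-A and placental growth factor receptor gene on chromosome 5 (147561604 to 147726011), was mostly an endothelial transcript: endothelial-like cells held 89.4% of its UMIs at 9 h and 86.7% at 2 h. Its level there was 1682 CPM at 9 h (2697 UMIs) and 2235 CPM at 2 h (2142 UMIs), a ratio of 0.753 (0.711–0.797) that was called neither. Without the mixed sub-clusters the ratio was 0.929 (0.873–0.988). Pericyte or smooth muscle-like cells came next at 97.6 CPM at 9 h and 128 CPM at 2 h, from 18 and 29 UMIs. The endothelial markers summed to 2675 and 1926 CPM in these cells. The part of endothelial RNA in their Flt1 was not tested, so the values are not read as expression. Monocyte-like cells outside the mixed sub-clusters had 4 Flt1 UMIs at 9 h (2.24 CPM) and 31 at 2 h (24.9 CPM, 16.9 to 35.4). In the mixed sub-clusters they had 17 more at 9 h and 0 at 2 h. These UMIs were too few for Flt1 to be counted as measured in that class. A Flt1 UMI was found in 70.0% of thinned endothelial-like cells at 9 h and 82.4% at 2 h, against 1.36% and 1.56% of neutrophil-like cells. FAP-like cells, at 0.730% and 0.850%, lay under the neutrophil-like share and are not read as expression. The neutrophil-like share itself is not shown to be free of expression. Among FAP-like cells thinned to 2000 UMIs at 9 h, 28.6% of the 28 cells with a Flt1 UMI also had a Cdh5 UMI, against 0.597% of the cells without Flt1, and at 2 h these shares were 36.0% of 25 cells and 0.735%. Among neutrophil-like cells at the same depth, 1 of 31 cells with Flt1 at 9 h and 0 of 34 at 2 h had a Cdh5 UMI. The source of the Flt1 UMIs in neutrophil-like cells was not tested.

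Kdr, the main signalling receptor of VEGF-A, lies on the same chromosome (75932827 to 75978458). Endothelial-like cells held 91.0% of its UMIs at 9 h and 85.1% at 2 h, at 251 CPM (402 UMIs) and 604 CPM (579 UMIs). The level was 2.41-fold lower at 9 h (2.12–2.74). Without the mixed sub-clusters it was 344 CPM at 9 h and 633 CPM at 2 h, a ratio of 0.544 (0.473–0.625), and the gene was no longer past the 2-fold rule. The thinned share of cells with a UMI was 21.2% at 9 h (17.7–25.0) and 45.5% at 2 h (39.1–52.0), with 0.101% and 0.195% in neutrophil-like cells, and was 38.5% and 73.4% before thinning. FAP-like cells came next in UMIs, with 23 at 9 h and 53 at 2 h.

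Nrp1, the co-receptor (chromosome 8, 128358604 to 128503363), fell most among the VEGF receptors in endothelial-like cells. Its level there was 128 CPM at 9 h (206 UMIs, 112 to 147) and 631 CPM at 2 h (605 UMIs, 582 to 684), 4.91-fold lower (4.19–5.78). The thinned share of endothelial-like cells with a UMI was 10.7% at 9 h (8.11–13.7) and 49.2% at 2 h (42.7–55.6), against 0.202% and 0.0651% of neutrophil-like cells, and the ratio of levels was 0.234 (0.194–0.281) without the mixed sub-clusters. The order of levels at 9 h was pericyte or smooth muscle-like (174 CPM), then endothelial-like cells, whose intervals overlapped, and at 2 h endothelial-like cells stood clear above pericyte or smooth muscle-like cells (168 CPM). By UMIs the gene was mostly a FAP transcript: FAP-like cells held 76.4% of its UMIs at 9 h and 62.3% at 2 h, at 68.8 and 103 CPM (ratio 0.665, 0.619 to 0.715). Macrophage-like cells had 53.6 CPM at 9 h (79 UMIs) and 103 CPM at 2 h (224 UMIs), 1.92-fold lower (1.48–2.51) and called neither, with a ratio of 0.478 (0.360–0.628) without the mixed sub-clusters. The pericyte or smooth muscle-like levels rested on 32 and 38 UMIs, and their ratio was 1.03 (0.624–1.70).

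The windows of 250 bases before the RefSeq starts of Flt1 (GRCm38.p6, chr5:147726012-147726261, minus strand), Kdr (chr5:75978456-75978705, minus strand) and Tek (chr4:94739039-94739288, plus strand) are shown because these 3 receptor genes share their expression in endothelial-like cells and Kdr and Tek, but not Flt1, were called lower at 9 h. Capitals again mark GGAA on either strand.
Flt1: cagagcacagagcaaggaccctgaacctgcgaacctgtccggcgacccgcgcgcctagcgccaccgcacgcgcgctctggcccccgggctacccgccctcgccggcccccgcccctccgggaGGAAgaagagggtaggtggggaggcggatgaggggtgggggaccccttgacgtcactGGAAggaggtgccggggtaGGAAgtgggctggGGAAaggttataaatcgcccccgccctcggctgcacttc
Kdr: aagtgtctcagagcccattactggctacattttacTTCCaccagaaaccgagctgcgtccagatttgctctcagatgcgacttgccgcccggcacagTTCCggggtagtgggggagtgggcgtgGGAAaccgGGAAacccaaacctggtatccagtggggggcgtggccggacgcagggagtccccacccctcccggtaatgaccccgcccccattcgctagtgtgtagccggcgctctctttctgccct
Tek: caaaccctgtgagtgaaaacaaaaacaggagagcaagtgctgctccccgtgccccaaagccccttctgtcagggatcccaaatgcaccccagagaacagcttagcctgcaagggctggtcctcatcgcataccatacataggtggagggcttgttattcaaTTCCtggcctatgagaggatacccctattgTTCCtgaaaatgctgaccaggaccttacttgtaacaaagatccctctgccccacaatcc
The windows of Flt1, Kdr and Tek held 4, 4 and 2 GGAA cores. GGGCGG was found 3 times for Flt1, 2 times for Kdr and 0 times for Tek, and TATAAA, the TATA box, once for Flt1 and in no other window of the 8 genes with an entry (12.4% of all windows held it). G and C made up 70.4% of the Flt1 window, 61.6% of the Kdr window and 51.2% of the Tek window. The forkhead motif TGTTTAC, found in 3.17% of all windows, was in none of the 3. Nrp1 was also called lower in endothelial-like cells. Its window lies inside the annotated gene and is not printed, and it held 4 GGAA cores, 1 GGGCGG and no TGTTTAC.

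Angpt1, the Tie2 agonist on chromosome 15 (42424723 to 42676977), was a FAP transcript: FAP-like cells held 93.2% of its UMIs at 9 h and 95.7% at 2 h. Its level in them was 3.47 CPM at 9 h (68 UMIs, 2.69 to 4.40) and 34.5 CPM at 2 h (561 UMIs, 31.7 to 37.4), 9.93-fold lower at 9 h (7.71–12.97). The thinned share of FAP-like cells with a UMI was 0.601% at 9 h (0.329–1.01) and 2.80% at 2 h (2.12–3.62). Of neutrophil-like cells 0 of 3969 had one at 9 h, which allows up to 0.0756%, and 0.0651% had one at 2 h. The FAP-like levels were 3.65 CPM at 9 h and 34.4 CPM at 2 h with mixed sub-clusters left out. Endothelial-like cells had 1 UMI at 9 h and 0 at 2 h, and 0 of 33 and 0 of 32 pericyte or smooth muscle-like cells had any, which allows levels of up to 16.3 CPM and 13.3 CPM by the limit of 3 counts. Tenocyte-like cells had 6.45 CPM at 9 h and 18.5 CPM at 2 h from 3 and 14 UMIs.

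Angpt2, the vessel-loosening ligand on chromosome 8 (18690263 to 18741562), was by UMIs mostly an endothelial transcript. Endothelial-like cells held 80.7% of its UMIs at 9 h and 57.9% at 2 h, at 99.2 CPM (159 UMIs, 84.4 to 116) and 34.4 CPM (33 UMIs, 23.7 to 48.4). The level was 2.88-fold higher at 9 h (1.97–4.33), and 4.02-fold higher without the mixed sub-clusters (2.68–6.23). Pericyte or smooth muscle-like cells came next in UMIs, at 70.5 CPM at 9 h (13 UMIs) and 44.3 CPM at 2 h (10 UMIs), ratio 1.59 (0.645–4.06). By level they were thus not below endothelial-like cells at 2 h, though from few UMIs. The thinned share of endothelial-like cells with an Angpt2 UMI was 7.06% at 9 h (4.96–9.68) and 3.28% at 2 h (1.43–6.36), intervals that overlap although those of the levels do not, and was 13.7% and 9.51% before thinning. Neutrophil-like cells had 0.101% and 0.0651% after thinning.

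Tek encodes Tie2 and lies on the plus strand of chromosome 4 (94739289 to 94874976). In endothelial-like cells it stood at 44.9 CPM at 9 h (72 UMIs, 35.1 to 56.6) and 214 CPM at 2 h (205 UMIs, 186 to 245), 4.76-fold lower (3.62–6.32), and the ratio was 0.277 (0.205–0.370) without the mixed sub-clusters. More Tek UMIs came from FAP-like cells than from endothelial-like cells, 70.8% of all at 9 h and 84.7% at 2 h, against 25.4% and 11.9%. The level in FAP-like cells was 10.3 CPM at 9 h (201 UMIs, 8.88 to 11.8) and 89.8 CPM at 2 h (1462 UMIs, 85.3 to 94.5), 8.76-fold lower (7.55–10.2). After thinning, 1.20% of FAP-like cells had a Tek UMI at 9 h (0.8003–1.73) and 8.55% at 2 h (7.36–9.86), whereas 0 of 3969 neutrophil-like cells had one at 9 h and 0.0651% at 2 h. Before thinning these FAP-like shares were 6.85% and 39.6%, and in endothelial-like cells 11.1% and 48.3%. Genes of the receptor and of its agonist were thus both called lower in FAP-like cells.

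Few FAP-like cells with Tek also carried the endothelial gene Cdh5. At 9 h, 0 of 55 FAP-like cells with a Tek UMI (thinned to 2000 UMIs) had a Cdh5 UMI, with an exact upper bound of 6.49%. At 2 h, 8 of 281 such cells had one (2.85%, 1.24 to 5.53), against 0.910% of the cells without Tek. Without the mixed sub-clusters Tek was 10.2 CPM at 9 h and 91.5 CPM at 2 h in FAP-like cells, so the difference was as large. In macrophage-like cells the picture was different: 0 Tek UMIs at 9 h and 33 at 2 h, of which 31 lay in mixed sub-clusters.

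Within the endothelium the libraries met in a pair of sub-clusters made without the 10 genes, which allows a comparison at more equal cell type. Sub-cluster 1, capillary-like, had 96 cells at 9 h and 119 at 2 h, and sub-cluster 3, arterial-like, had 39 and 52. In the capillary-like sub-cluster 1 Kdr was 505 CPM at 9 h and 888 CPM at 2 h (ratio 0.568, 0.446 to 0.718). Nrp1 was 321 and 845 CPM there (0.379, 0.283 to 0.502) and Tek 131 and 270 CPM (0.486, 0.299 to 0.765), so the intervals of all 3 ratios lay below 1. Flt1 was higher in these cells, with 3623 CPM at 9 h and 2711 CPM at 2 h (1.34, 1.21 to 1.48). Cdh5 was 2729 and 2201 CPM in the same cells (ratio 1.24, 1.11 to 1.39).

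In the arterial-like sub-cluster 3 the receptors differed from this. Kdr was 321 CPM at 9 h and 301 CPM at 2 h, a ratio of 1.07 with an interval from 0.751 to 1.51. Nrp1 (174 and 466 CPM, ratio 0.372, 0.245 to 0.551) and Tek (73.7 and 223 CPM, 0.330, 0.170 to 0.598) were lower, and Flt1 was 1331 and 1973 CPM (0.675, 0.578 to 0.786). Both ligands were higher beyond counting error in sub-cluster 3: Pgf was 447 CPM at 9 h and 73.2 CPM at 2 h (6.11, 3.68 to 10.6), and Angpt2 163 and 50.1 CPM (3.26, 1.66 to 6.78). In sub-cluster 1 Pgf was low at both times, 68.4 CPM at 9 h from 13 UMIs and 21.5 CPM at 2 h from 7 UMIs (ratio 3.18, 1.18 to 9.40). In the arterial-like cells the FAP gene Dcn was 442 CPM at 9 h and 46.2 CPM at 2 h, and its part in the Pgf value was not tested.

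Most of the endothelial Pgf and Angpt2 at 9 h came from a capillary-like sub-cluster that had almost no 2 h cells. Sub-cluster 0 had 257 cells at 9 h and 2 at 2 h. Its capillary name is weak: the mean scaled level of the capillary markers was 0.217 in it, against 0.919 in sub-cluster 1. Pgf and Angpt2 were among its own leading genes. It held 672 of the 938 Pgf UMIs and 104 of the 159 Angpt2 UMIs of endothelial-like cells at 9 h, at 1186 and 184 CPM. Kdr stood at 304 CPM, Nrp1 at 98.8 CPM and Tek at 33.5 CPM in it, each under the 9 h value of sub-cluster 1, and Angpt2 in sub-cluster 1 rested on 1 UMI at 9 h and 10 at 2 h. Dcn was 35.3 CPM in sub-cluster 0 at 9 h, near its 42.1 CPM in sub-cluster 1. Sub-cluster 0 and the 9 h library cannot be told apart, so its values describe that library. At 2 h a further capillary-like group, sub-cluster 4, led by interferon-response genes such as Ifit1 and Rsad2, had 57 cells there and 1 at 9 h, with Kdr at 698 CPM, Nrp1 at 687 CPM and 3 Pgf UMIs at 2 h.

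**Figure D3:**
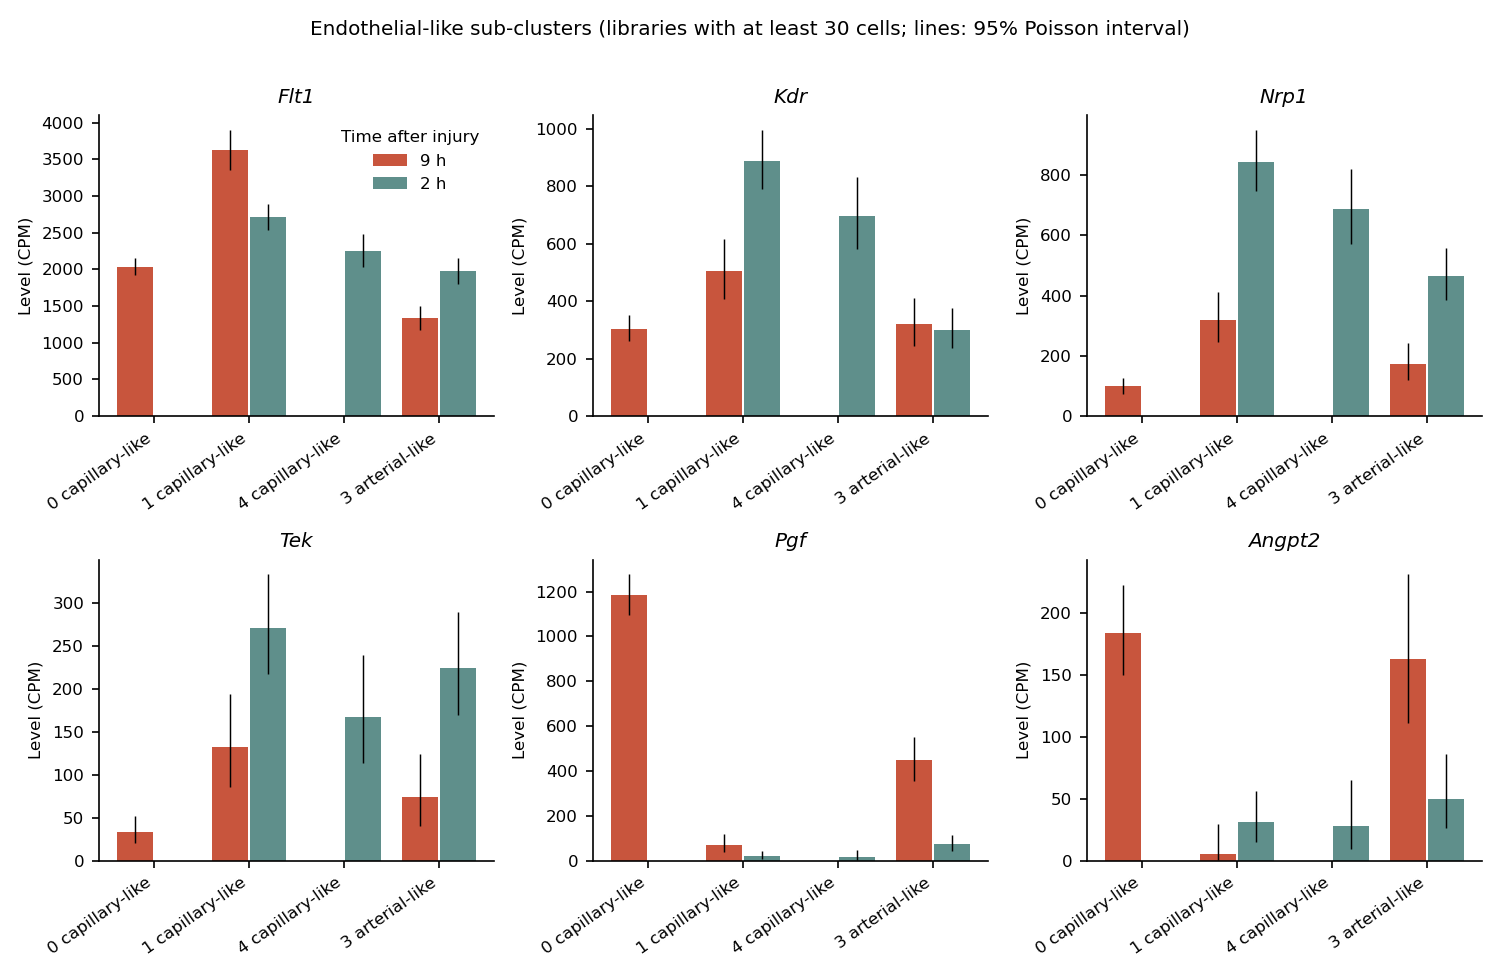
Levels (CPM, linear axes from 0) of 6 genes in 4 endothelial-like sub-clusters, with 9 h bars (red) left of 2 h bars (green), drawn where a library has at least 30 cells; lines are 95% Poisson intervals. In capillary-like sub-cluster 1, Kdr, Nrp1 and Tek are lower at 9 h and Flt1 is higher, and Pgf is highest in sub-cluster 0, drawn for the 9 h library only, where Angpt2 (184 CPM) overlaps in its interval with sub-cluster 3 (163 CPM).

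Receptor transcripts were also counted cell by cell in endothelial-like cells. Among cells thinned to 2000 UMIs with a Flt1 UMI, Kdr was also found in 38.5% at 9 h (102 of 265 cells, 32.6–44.6) and 61.6% at 2 h (117 of 190 cells, 54.3–68.5). Nrp1 was found in 21.9% and 68.4% of the same cells and Tek in 8.30% and 38.9%. Pgf was found in 31.3% of the 9 h cells with Flt1 and 3.16% of the 2 h cells. At 9 h the share with Pgf was 46.0% among the cells in which no Flt1 UMI was found, which at this depth does not show that Flt1 was absent.

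FAP-like cells separated almost wholly by library when sub-clustered, so no FAP sub-cluster other than a mixed one gives both times at depth. At 9 h the ligands were uneven among 3 sub-clusters. FAP 0, led by Tnc, Cxcl5 and Mmp3 (875 cells), had Pgf at 427 CPM and Vegfa at 200 CPM. FAP 2, led by Krtdap and Dmkn (769 cells), had 132 and 136 CPM, and FAP 4, led by Saa1 and Saa2 (428 cells), had 17.3 and 70.7 CPM. The order FAP 0, FAP 2, FAP 4 held for both ligands with intervals that did not overlap, while Nrp1 ran the other way at 30.7, 49.7 and 193 CPM. FAP 0 alone held 3063 of the 4547 Pgf UMIs.

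At 2 h the sub-clusters differed in Vegfa, Angpt1 and Tek. FAP 3, led by Efhd1, Sema3c, Dpp4 and Pi16 (712 cells), the genes of adventitial-type fibroblasts, had Vegfa at 291 CPM and Tek at 156 CPM. FAP 1, led by Col15a1 (778 cells), had 107 and 61.3 CPM, and FAP 6, led by Gdf10 (378 cells), had 119 and 23.6 CPM. Angpt1 was ordered differently, with 52.2 CPM in FAP 6 (43.7–61.9), 41.2 CPM in FAP 1 (36.4–46.4) and 19.3 CPM in FAP 3 (15.9–23.2), so Tek and Angpt1 were highest in different FAP-like cells. At 9 h Tek was 27.2 CPM in FAP 4, 8.28 CPM in FAP 2 and 4.18 CPM in FAP 0, and the FAP 4 level overlapped in its interval (21.8–33.5) with FAP 6 at 2 h (18.0–30.3). Angpt1 was 10.2, 1.63 and 2.23 CPM in the same 3 sub-clusters at 9 h, under all 3 levels at 2 h. The mixed sub-cluster FAP 5, with neutrophil markers, had 283 cells at 9 h and 136 at 2 h and showed the same directions: Pgf 222 and 51.1 CPM, Tek 10.7 and 68.1 CPM, Angpt1 2.14 and 35.7 CPM.

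**Figure D4:**
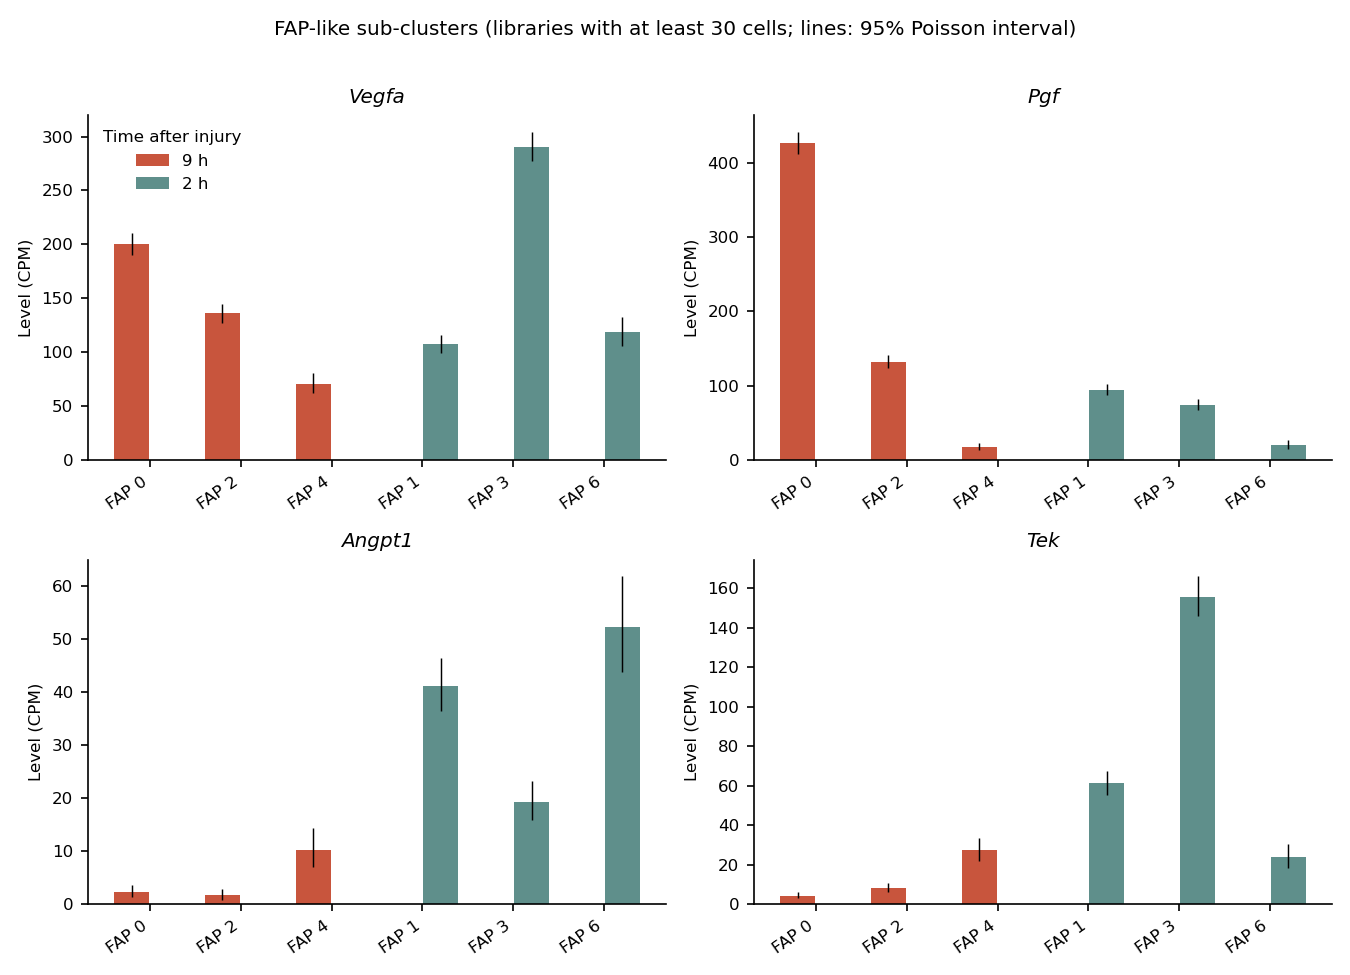
Levels (CPM, linear axes from 0) of 4 genes in 6 FAP-like sub-clusters, drawn where a library has at least 30 cells, which leaves 3 sub-clusters at 9 h (red) and 3 at 2 h (green); lines are 95% Poisson intervals. Pgf is highest in FAP 0 at 427 CPM, Vegfa and Tek in FAP 3 at 291 and 156 CPM, and Angpt1 in FAP 6 at 52.2 CPM.

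Myeloid Vegfa was also uneven. Sub-cluster 4 of the monocyte-like and macrophage-like cells, led by Ccl17 and Lyz1, held both times, and Vegfa was 335 CPM in it at 9 h (54 cells, 157 UMIs) and 65.5 CPM at 2 h (56 cells, 35 UMIs), 5.12-fold higher (3.53–7.62). Its identity is uncertain: no macrophage marker was among its leading genes, and Ccl17 also led the dendritic-like cluster. Sub-cluster 1, led by Spp1, the gene of osteopontin, was nearly all from 9 h (196 cells, against 6 at 2 h) and had 262 CPM. Sub-cluster 3, led by Ppbp, Gdf15 and Pf4, was also from 9 h (148 cells, against 3 at 2 h) and had 92.97 CPM from 72 UMIs, while sub-cluster 0, mostly from 2 h, had 0 Vegfa UMIs in 13 cells at 9 h and 11.0 CPM in 228 cells at 2 h (14 UMIs). Sub-cluster 2, led by the monocyte genes Plac8 and Ly6c2, had 27.6 CPM at 9 h (3 UMIs) and 36.2 CPM at 2 h (43 UMIs), and the intervals overlapped. At 2 h most Nrp1 UMIs of macrophage-like cells lay in sub-cluster 0, led by Ccl8, Folr2 and Lyve1, genes of resident macrophages, with 147 CPM (186 UMIs, 228 cells). This sub-cluster had 3 Nrp1 UMIs in 13 cells at 9 h. Most of the 79 Nrp1 UMIs of macrophage-like cells at 9 h thus lay in other sub-clusters.

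Other genes of the same pathways were read from 8 lists. Of 19 further VEGF and Tie pathway genes, 7 were measured in endothelial-like cells, 2 were called higher and 3 lower, with a median log2 ratio of -0.84 against 0.05 over all measured genes. Plxnd1, for a semaphorin receptor of endothelium, was 64.3 CPM at 9 h and 189 CPM at 2 h. The gene Ptprb, for a phosphatase that restrains Tie2, was 560 and 1477 CPM, while Angptl4 was 187 and 21.9 CPM and Sema3f, a neuropilin ligand, 379 and 146 CPM. Tie1, the partner of Tie2, was 206 and 379 CPM and was called neither. In FAP-like cells 11 of the 19 were measured, 1 was called higher and 3 lower (median -0.49 against 0.00). Angptl4 was 328 CPM at 9 h and 18.4 CPM at 2 h in them, and Angptl1 was 16.2 and 337 CPM, Angptl2 9.74 and 91.9 CPM and Sema3c 41.1 and 308 CPM. The angiopoietin-like genes therefore went in both directions in FAP-like cells.

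Of 15 genes known to answer VEGF in endothelium, 8 were measured in endothelial-like cells, with 1 called higher and 1 lower (median -0.27). Pdgfb, a growth factor for mural cells, was 276 CPM at 9 h and 125 CPM at 2 h, and Rcan1, a calcineurin regulator induced by VEGF, was 82.3 and 235 CPM. Nr4a1 (155 and 298 CPM), Egr3 (48.7 and 97.0 CPM) and Adamts1 (980 and 1630 CPM) were called neither. Apln, a tip-cell peptide, had 86 UMIs at 9 h and 7 at 2 h and stayed under the measured minimum. Of 11 genes of the Tie2 and FOXO1 axis, 10 were measured there, with Cldn5, a tight junction gene, called higher (1743 and 768 CPM) and Klf2, a flow-response factor, called lower (984 and 2166 CPM), and a median of -0.38. Klf4 (470 and 935 CPM) and Cav1 (910 and 1777 CPM) were called neither.

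Hypoxia-response genes, of which Vegfa is a classic example, were mixed. In FAP-like cells 15 of 20 were measured (19 are in the files), 3 were called higher and 2 lower, with a median of 0.27 against 0.00. Ldha, for lactate dehydrogenase, was 754 CPM at 9 h and 203 CPM at 2 h, and Pgk1 (188 and 75.7 CPM) and Adm (502 and 238 CPM) were also higher, whereas Ndrg1 (59.1 and 142 CPM) and P4ha1 (72.5 and 176 CPM) were lower. In monocyte-like and macrophage-like cells summed as 1 class, 12 were measured, 3 were called higher (against 2.38% of measured genes) and 0 lower (against 5.88%), with a median of 0.44 against -0.03. These were Hif1a (812 and 317 CPM), Pgk1 (367 and 157 CPM) and Slc2a1, the glucose transporter (162 and 67.3 CPM). In endothelial-like cells 12 were measured, Hif1a (487 and 230 CPM), Slc2a1 (66.1 and 25.0 CPM) and Pgk1 (201 and 80.3 CPM) were called higher and Epas1 (537 and 1211 CPM) lower, with a median of -0.02.

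Angiogenesis inhibitors and matrix modulators were called lower in FAP-like cells for 6 of 10 measured and higher for 0, with a median of -1.07. Sparc was 1264 CPM at 9 h and 4216 CPM at 2 h, Hspg2, for perlecan, 275 and 1022 CPM, and Col18a1, the source of endostatin, 24.0 and 104 CPM. In endothelial-like cells Thbs1, for thrombospondin-1, was 1685 and 484 CPM. It was far higher in neutrophil-like (8581 and 8187 CPM) and monocyte-like cells (10068 and 3574 CPM). The part of neutrophil RNA in the endothelial-like values was not tested. Of 13 other angiogenic growth factors, 12 were measured in FAP-like cells with 1 higher (Ccn2, 2099 and 531 CPM) and 1 lower (Igf1, 173 and 377 CPM) and a median of -0.16. Of 10 endothelial activation genes, 6 were measured in endothelial-like cells, with Cxcl1 (773 and 67.8 CPM) and Lrg1 (367 and 149 CPM) higher and Selp, for P-selectin (48.7 and 192 CPM), lower (median 0.36). Immediate early and heat shock genes, which tissue dissociation can induce, were lower for 7 of 10 in endothelial-like cells (median -1.12) and for 9 of 10 in FAP-like cells (median -1.93). Egr1 was 1011 and 3060 CPM in endothelial-like cells and 615 and 3115 CPM in FAP-like cells, and the part of dissociation in the lower receptor levels was not tested.

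Across the 17 profiles of classes with at least 50 cells in a library, the genes most like each member, except Angpt2, whose 254 UMIs were under the minimum of 300, were named by Pearson's r of log2(CPM + 10). These profiles share their libraries, so r is a description. Flt1 was most like Depp1 (0.981), Tmem252 (0.981) and Sox7 (0.977), and Kdr most like Tmem252 (0.990), Sox7 (0.984) and Depp1 (0.9796). Tek was most like Plscr4 (0.953), Ramp2 (0.952) and Fbxl7 (0.918), and Angpt1 most like Col4a4 (0.960), Itga11 (0.952) and Angptl1 (0.951). Nrp1 was most like Pggt1b (0.919), Klc1 (0.887) and Wars (0.885), and Vegfc most like Ptprk (0.929), Tmem204 (0.924) and Cdkn1c (0.914). Pgf was most like Mustn1 (0.877), Atp8b1 (0.817) and Rspo3 (0.8003), and Vegfb most like Eef1akmt2 (0.899), Ccdc90b (0.867) and Fcgrt (0.846). Vegfa had the loosest matches, Rdh13 (0.672), Phlda1 (0.661) and Cxcl1 (0.632). Among the members, Flt1 and Kdr were closest (0.9702), then Flt1 and Angpt2 (0.940), and Angpt1 and Tek had r = 0.285.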

How the data were processed

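Single-cell 3′ libraries were read from 2 matrices, 1 per time. The deposited values are counts of UMIs per gene and cell barcode, made by the authors with Cell Ranger 5.0.0 and the mm10 build, as the submitters' processing notes list; aligner settings and cell calling are not given in the sources used here. Of 8790 barcodes at 9 h and 5729 at 2 h, those with at least 500 UMIs, 200 genes and at most 20% mitochondrial UMIs were kept (92.7% and 85.5%). Scanpy 1.11.5 clustered the cells on 2000 variable genes without the 10 members (30 components, 15 neighbours, Leiden resolution 1; 0.5 within classes), and 18 marker lists named the clusters. The doublet caller marked 0 cells at 9 h and 6 at 2 h, so its calls were set aside and the cells with the highest scores were left out as an alternative. UMIs were summed per class and library and scaled to 1000000. Intervals are exact Poisson or binomial (Clopper-Pearson) at 95%, and UMIs of 1 cell are not independent, so they cover counting error only. Ratios and their intervals were checked on counts simulated from the Poisson model that the intervals assume. That check cannot show how they behave where UMIs cluster within cells, as they do here. With 1 library per time no test was made. Other choices tried were resolution, mitochondrial limit, pseudocount, edgeR 4.0.16 TMM scaling, equal weight of cells, filters and thinning depth.

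The text names all 10 members, for each member but Angpt2 (under 300 UMIs) the 3 genes with the most similar profile, and from each of 8 gene lists up to 4 measured genes of largest change plus the one of highest level; Tie1, Apln and the arterial, FAP and myeloid sub-cluster genes were named after their values were seen. The members and lists were chosen with earlier results of these data known. Coordinates are mm10 from GENCODE M21, promoters are RefSeq GRCm38.p6 windows, and 8 of 10 members matched; Angpt1 and Angpt2 did not.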

Additional observations from a re-analysis of the deposited data

Results flagged for a closer look

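Vegfa was called higher at 9 h in the monocyte-like and macrophage-like cells and neither higher nor lower in FAP-like cells. Its 9 h level over its 2 h level was 4.15 in macrophage-like cells and 2.89 in monocyte-like cells, against 0.831 in FAP-like cells. The difference between these ratios was not tested, since each time has 1 library. The FAP-like value rests on different clusters at each time, and its direction depended on them: the log2 ratio was -0.25 with all FAP clusters and 0.09 without the clusters that had no FAP marker among their leading genes. That alternative leaves out most 9 h FAP-like cells and few 2 h ones, so it does not settle the direction. The thinned shares of macrophage-like and monocyte-like cells with a Vegfa UMI at 2 h, 2.28% and 4.07%, lay under the 6.93% of T or NK-like cells. That background itself carried FAP markers, at 7761 CPM at 2 h. The macrophage-like ratio was 7.10 without the mixed sub-clusters. FAP markers summed to 1146 CPM in macrophage-like cells at 9 h and 4180 CPM at 2 h, and their part in the result was not tested.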

How the results depend on the processing

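All ratios are log2 of 9 h over 2 h with 10 CPM added. At resolution 0.5 no cluster was named macrophage-like (804 cells with most of its markers had more leading dendritic markers), so Vegfa there had no value, and the other 10 of the 11 calls stayed past 2-fold in the same direction, as did 11 of 11 with the members allowed among the variable genes, the highest doublet scores left out, a pseudocount of 1 CPM, TMM scaling or cells weighted equally. Pgf in FAP-like cells (1.57) became -0.029 without clusters that had no own marker among their leading genes, the one reversal among the calls. With the same clusters left out, Tek in FAP-like cells (-2.30) was -1.83. This alternative leaves out most FAP-like cells at 9 h but few at 2 h. Kdr in endothelial-like cells (-1.24) was -0.86 without the mixed sub-clusters, an alternative chosen after seeing the data. Vegfc in endothelial-like cells (-1.05) was -0.87 at resolution 2 and -0.91 with at most 10% mitochondrial UMIs. Vegfa in macrophage-like cells (1.84) was 1.52 at resolution 2, 2.24 without the highest doublet scores and 2.45 without the mixed sub-clusters. Pgf in FAP-like cells was 1.68 with a pseudocount of 1 CPM and 1.70 with TMM scaling, and in endothelial-like cells (3.71) 4.27 without the highest doublet scores and 4.42 with cells weighted equally. With a pseudocount of 1 CPM, Angpt1 in FAP-like cells (-1.72) was -2.99 and Tek -3.01, and Tek was -2.12 with cells weighted equally. Apart from the effect of a smaller pseudocount on low genes, the cause was not tested.

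Counts of all genes called moved more. The TMM factors equal an upward log2 shift of 0.14 in FAP-like, 0.14 in neutrophil-like and 0.22 in monocyte-like cells, and this scaling gave 982 higher and 814 lower, 295 and 218, and 259 and 149 genes in these classes. As reported, 771 were higher and 975 lower in FAP-like cells, against 1488 and 1985 with a pseudocount of 1 CPM, and in neutrophil-like cells 235 and 291, against 426 and 467 with that pseudocount and 103 and 175 without clusters lacking an own marker. In endothelial-like cells 312 were higher and 323 lower, against 162 higher without the mixed sub-clusters, 560 and 570 with at least 20 UMIs and 565 and 607 with no filter. In monocyte-like cells 173 were higher and 244 lower, against 438 and 445 lower with those filters. In macrophage-like cells they were 330, and 527 with either filter. No paired analysis was possible because each time has 1 library and no test was made. With 1 library per time, replicate libraries could not be left out. Depth limits the low genes: Vegfb, Angpt1 at 9 h and all values in classes under 100 cells rest on few UMIs.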
